A study of Rattus norvegicus with 18 samples.

Results

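Chemokines and their receptors were followed in rat liver on the first day after partial hepatectomy, bleeding and fluid replacement. The genes were chosen by symbol, as every probe set whose array annotation gave exactly 1 gene symbol starting with Ccl, Cxcl, Xcl, Cx3cl, Ccr, Cxcr, Xcr, Cx3cr or Ackr followed by a digit. This gave 54 of 18166 annotated genes, namely 34 ligands and 20 receptors, each measured by 1 probe set. Liver RNA of adult male Sprague-Dawley rats was hybridised to GeneChip Rat Gene 2.0 ST arrays, on which many short probes along a gene report its RNA as brightness. There were 6 groups with 3 arrays each, and each array held the RNA of a separate rat according to the labels. Naive rats had no surgery. PHx rats had 50% of the liver mass removed. Rats of the bleeding group also lost 3 ml of blood through a cannula in the femoral artery. F-RBC rats had the same surgery and bleeding and were given fresh red blood cells, S-RBC rats were given red blood cells stored for 7 days, and HAES rats were given 10% HAES, a fluid named in the labels only by that abbreviation. All operated livers were taken on day 1, so the naive group differs from the others in surgery, anaesthesia and time together, and no sham-operated group was analysed here.

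Chemokines are small secreted proteins that guide leukocytes along gradients by binding receptors of the G protein-coupled class on their surface. The CXC ligands near Cxcl1 draw neutrophils through Cxcr2, the CC ligand Ccl2 draws monocytes through Ccr2, and Cxcl9, Cxcl10 and Cxcl11, which interferon-gamma induces, draw T and NK cells through Cxcr3. In liver, Kupffer cells, sinusoidal endothelium, stellate cells and hepatocytes all can release them, and Cx3cr1 is best known from monocytes and the macrophages that derive from them. Atypical receptors bind chemokines without the usual signalling and remove or transport them.

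The stretch upstream of the transcription start is shown for 4 genes on which the results turn, since Cxcl10, Cx3cr1 and Cxcl13 differed among the groups and Cxcl1 had the widest range. Each line gives the 250 bases that end at the start, 5′ to 3′ on the gene's own strand, from RefSeq on the GRCr8 build, with capitals for every match to 5 motifs. These were the NF-kB consensus and the interferon-stimulated response element (ISRE), given by name, AP-1 as TGANTCA, C/EBP as TTGCNNAA and STAT as TTCNNNGAA, each on both strands. Cxcl10 lies at chr14:15988816-15989065 (plus strand), Cx3cr1 at chr8:128677067-128677316 (minus), Cxcl13 at chr14:13917921-13918170 (minus) and Cxcl1 at chr14:17479322-17479571 (minus).
Cxcl10: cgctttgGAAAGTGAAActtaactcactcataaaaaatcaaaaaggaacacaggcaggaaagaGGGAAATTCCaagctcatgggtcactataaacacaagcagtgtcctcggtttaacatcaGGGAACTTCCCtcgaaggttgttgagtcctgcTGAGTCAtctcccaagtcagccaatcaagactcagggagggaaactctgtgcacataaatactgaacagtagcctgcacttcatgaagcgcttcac
Cx3cr1: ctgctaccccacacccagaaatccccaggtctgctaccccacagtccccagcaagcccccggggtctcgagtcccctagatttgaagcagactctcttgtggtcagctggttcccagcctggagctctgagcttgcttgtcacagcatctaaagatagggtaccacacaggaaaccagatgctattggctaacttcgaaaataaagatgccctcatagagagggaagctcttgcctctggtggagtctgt
Cxcl13: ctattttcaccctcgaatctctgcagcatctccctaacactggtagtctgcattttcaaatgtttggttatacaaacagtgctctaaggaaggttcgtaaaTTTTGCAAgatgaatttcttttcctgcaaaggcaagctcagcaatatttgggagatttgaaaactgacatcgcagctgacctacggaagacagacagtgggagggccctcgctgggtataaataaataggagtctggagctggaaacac
Cxcl1: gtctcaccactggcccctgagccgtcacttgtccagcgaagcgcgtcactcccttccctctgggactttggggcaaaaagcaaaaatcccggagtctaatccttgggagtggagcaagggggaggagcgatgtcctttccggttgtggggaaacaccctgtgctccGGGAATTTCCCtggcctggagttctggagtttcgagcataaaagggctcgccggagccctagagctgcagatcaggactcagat
The capitals in Cxcl10 are, from the left, an ISRE match 243 to 234 bases before the start, NF-kB matches at 187 to 178 and 128 to 119 bases (the latter overlapped by a match on the other strand shifted by 1 base) and an AP-1 match at 96 to 90 bases. Cxcl1 held an NF-kB match 84 to 75 bases before the start, again with an overlapping match on the other strand, and Cxcl13 held a C/EBP match at 149 to 142 bases. The Cx3cr1 stretch held none of these letters. Of the 54 genes 42 had an entry, and the NF-kB consensus was found in 9 of them (21.4%) against 6.33% of all 33465 promoters. The AP-1 letters were found in 7 (16.7%) against 6.34%, C/EBP in 7 (16.7%) against 9.22%, STAT in 4 (9.52%) against 7.67% and ISRE in 2 (4.76%) against 3.41%. A match says only that these letters are present.

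Brightness is given below as linear intensity, as the authors deposited it, and differences between groups as differences of mean log2(intensity + 16), in which the offset of 16 shrinks the differences of dim genes. Array medians lay between 16.11 and 23.02, and the arrays thus still differed in scale. The 7 hepatocyte markers measured were all bright (lowest intensity 732), with sums of 18770 to 24680 per array. S-RBC replicate 1 stood apart, since its highest correlation with another array was 0.9382 against 0.9675 or more for every other array, and the calls of members in S-RBC rats and the differences of single members between S-RBC and F-RBC rats are also given without it. P-values come from limma, adjusted over all 36685 probe sets, with 0.05 as the threshold. All groups share an estimate of the spread in this fit. Leaving out an array can therefore change a call between groups that do not hold it, though their difference stays the same. Counts at an unadjusted p have no share of all probe sets beside them.

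The family split evenly about the median probe set of the array (5.14 on the log2 scale), with 27 members above and 27 below it. Ccl9, a rodent ligand of Ccr1, was the brightest with a mean of 11.22, above 99.7% of probe sets, followed by Ccl6 at 9.96, Cxcl12, the ligand of Cxcr4, at 8.32 and Cxcl1 at 7.22. The brightest receptor was Ackr3, the atypical receptor of Cxcl12, above 76.2% of probe sets. Brightness also depends on the probes, so this order is one of signal and not of RNA molecules.

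**Figure D1:**
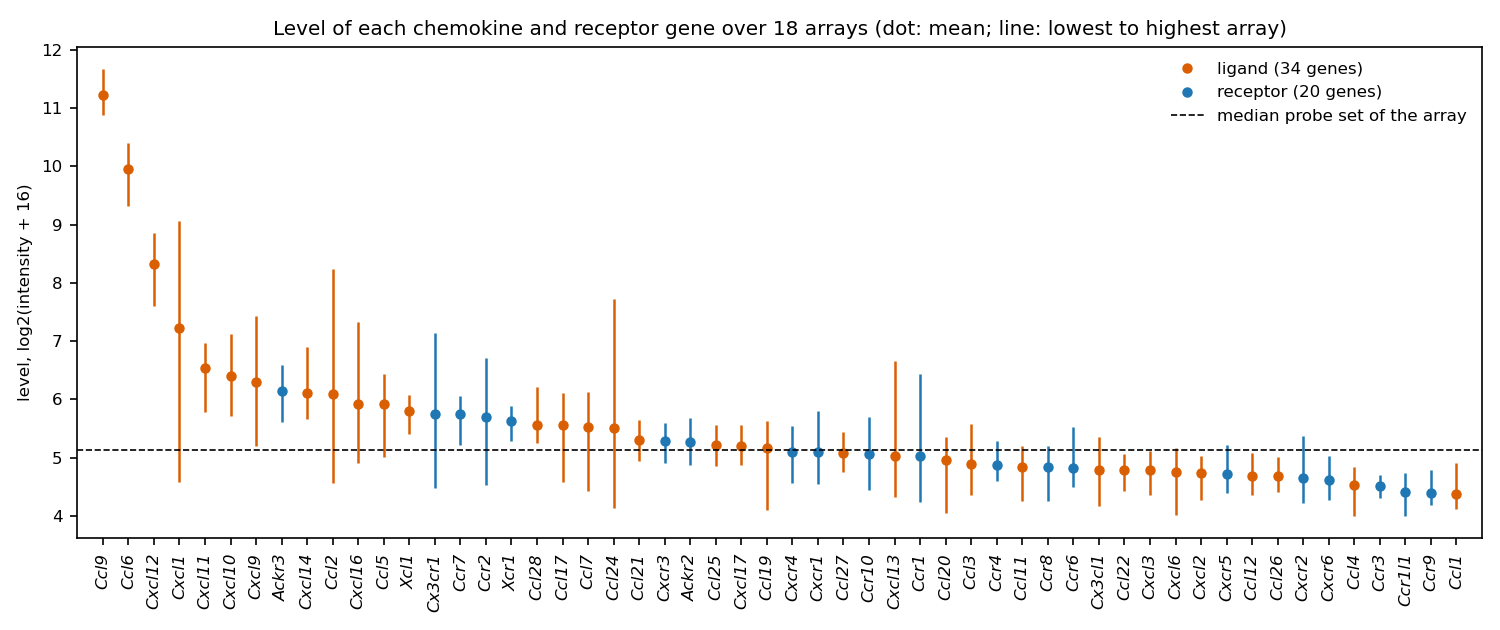
Level of each of the 54 genes over the 18 arrays, as log2(intensity + 16), with a dot for the mean and a line from the lowest to the highest array, ligands in orange and receptors in blue. The dashed line is the median probe set of the array at 5.14. Ccl9, Ccl6 and Cxcl12 stand far above it, and Cxcl1, Ccl2 and Ccl24 have the longest lines.

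Several members varied widely among rats treated alike. The mean SD within groups placed 10 of 54 members (18.5%) in the top 10% of all probe sets, and these were Cxcl1, Ccl2, Ccl7, Cxcl9, Cxcl13, Ccl24, Cxcl16, Ccr1, Ccr2 and Cx3cr1. Cxcl1 and Ccl2, which attract neutrophils and monocytes, were both at the 99.7th percentile. With 3 arrays per group, only large differences in such genes could pass a test.

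Over the 6 groups, 4 of 54 members (7.41%) passed the moderated F test, against 6.59% of all probe sets, so the family as a whole differed about as often as any probe set. The 4 were Cxcl10 (adjusted p = 0.0263), the CC receptor Ccr8 (0.0295), Cx3cr1 (0.0473) and Cxcl13 (0.0478). Which members passed depended on the scaling, since Ccr8 missed the threshold after quantile normalization (0.129) and median centring (0.127), Cxcl10 missed it after the former (0.0578), and Ccr1 passed after both (0.0449 and 0.0378). The next in order, with adjusted p-values that missed the threshold, were Ccr1, Cxcl1, Cx3cl1, Cxcr6, Ccl9, Ccl24, Ccr10 and Cxcl16.

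**Figure D2:**
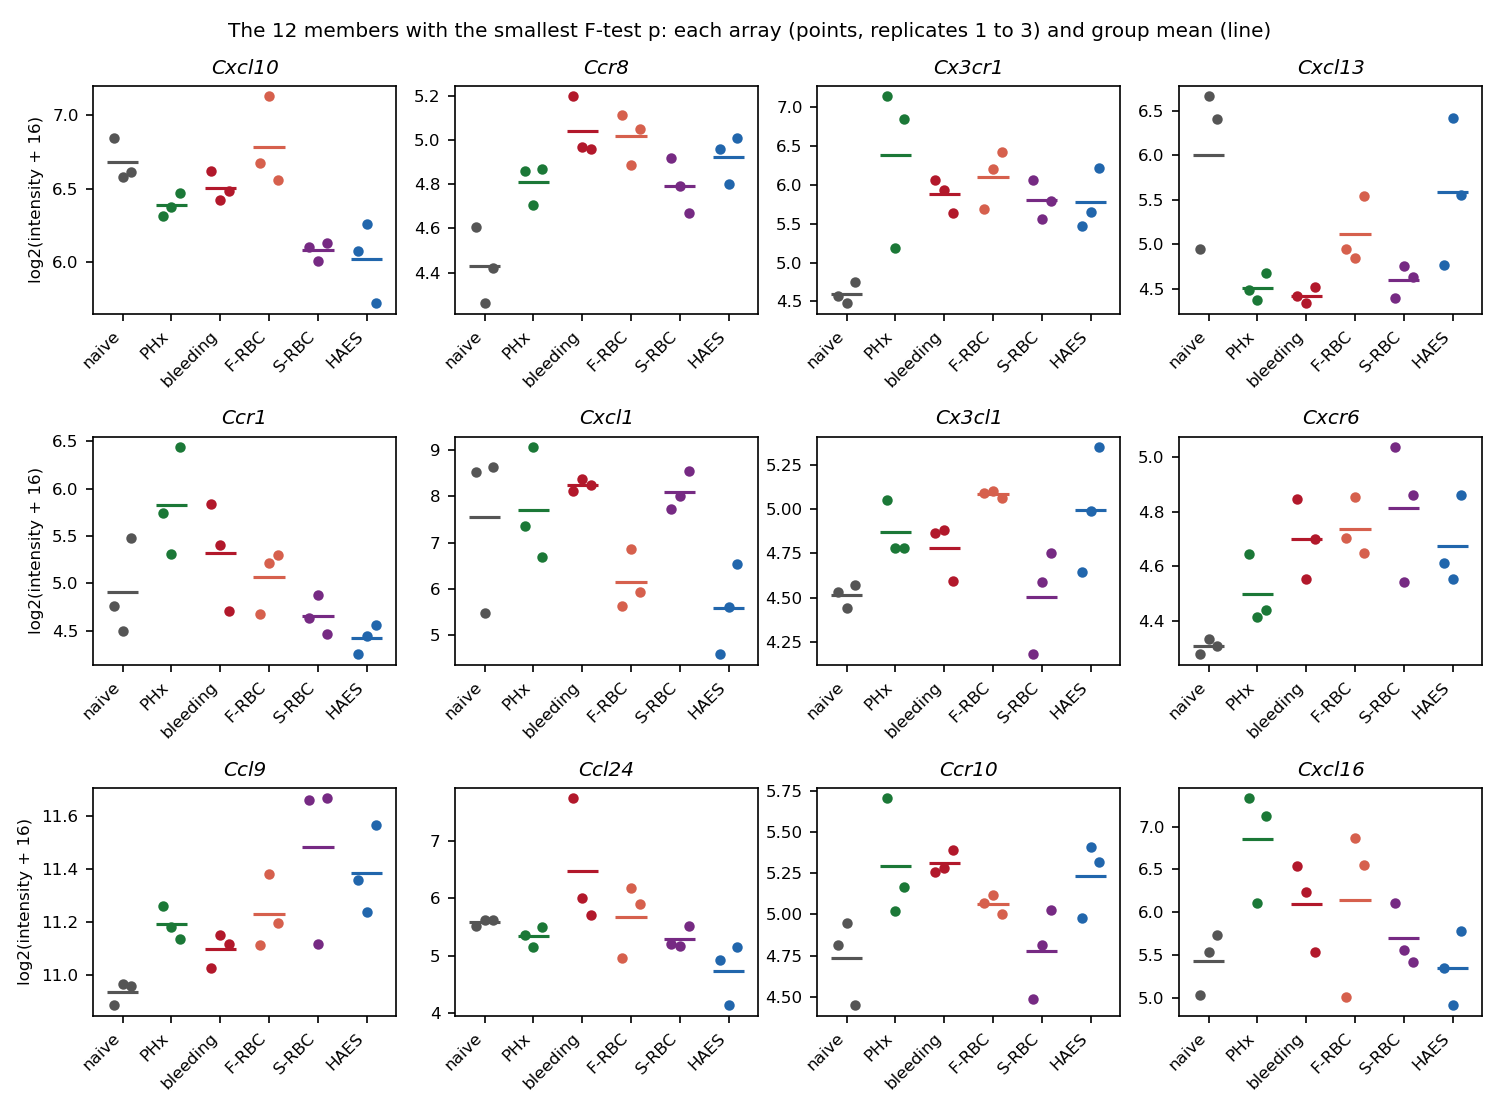
The 12 members with the smallest F-test p, each panel with its own vertical axis of log2(intensity + 16). Points are single arrays in the order of replicates 1 to 3 and lines are group means of 3 arrays. Cx3cr1, Ccr8 and Cxcr6 have all naive points below all operated points, and Cxcl10 is lowest in the S-RBC and HAES groups.

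Among the receptors, the largest difference from naive rats was that of Cx3cr1, the receptor of the membrane-bound chemokine Cx3cl1. Its intensity was 7.74, 6.24 and 10.9 in the naive livers and 125, 20.4 and 98.7 after PHx. It was 50.8, 45.1 and 33.6 in the bleeding group, 35.6, 57.7 and 69.9 in the F-RBC group, 51.0, 31.3 and 39.4 in the S-RBC group and 28.2, 34.0 and 58.4 in the HAES group. All 15 operated livers were brighter than all 3 naive livers, and PHx replicate 2 was the dimmest of the operated ones. Cx3cr1 rose by 1.79 (SE 0.36, adjusted p = 0.0425) after PHx, the only member called of 54 (1.85%) where 0.346% of all probe sets were called. It also rose by 1.51 (SE 0.36, adjusted p = 0.0239) in F-RBC rats and by 1.39 (SE 0.28, adjusted p = 0.0127) in the mean of the 5 operated groups, each against naive rats. The differences of 1.28, 1.21 and 1.18 in the bleeding, S-RBC and HAES groups missed the threshold (adjusted p = 0.106, 0.0813 and 0.106). Without PHx replicate 2 all 3 passed (adjusted p = 0.0151, 0.00684 and 0.00903), and Cx3cr1 was then also lower than in PHx rats, by a difference of −1.18 in S-RBC rats (adjusted p = 0.0424) and −1.21 in HAES rats (adjusted p = 0.0203). The call for PHx was lost in 13 of 18 fits that each left out 1 array (adjusted p up to 0.229), namely those without any naive array, PHx replicate 1 or 3, any bleeding array, F-RBC replicate 3, S-RBC replicate 2 or 3, or HAES replicate 1 or 2. That for F-RBC was lost without naive replicate 1 or 2 or F-RBC replicate 2 or 3 (adjusted p up to 0.0872), and that for all operated groups without naive replicate 1 or 2 (0.0913 and 0.0766).

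In whole tissue, more cells of a type and more RNA per cell cannot be told apart. Markers of monocytes and recruited macrophages were therefore set beside Cx3cr1. All 12 of 12 listed were measured and none lay at the lowest value of the file. Their summed intensity was 1018 to 1326 in naive livers, 1804 to 4793 after PHx, 822.3 to 2712 in the bleeding group, 1176 to 3378 in the F-RBC group, 1215 to 1698 in the S-RBC group and 1056 to 1226 in the HAES group. After PHx all 12 were higher in mean than in naive rats, with a median difference of 0.945 against 0.0328 over all probe sets. Of the 12, 3 were called (25%, against 0.346% of all probe sets), namely Spp1, Gpnmb and Mmp12. In the HAES group, 4 of the 12 were higher, with a median of −0.134, while Cx3cr1 was above naive rats in all 3 livers. Their part in the differences of Cx3cr1 was not tested.

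**Figure D3:**
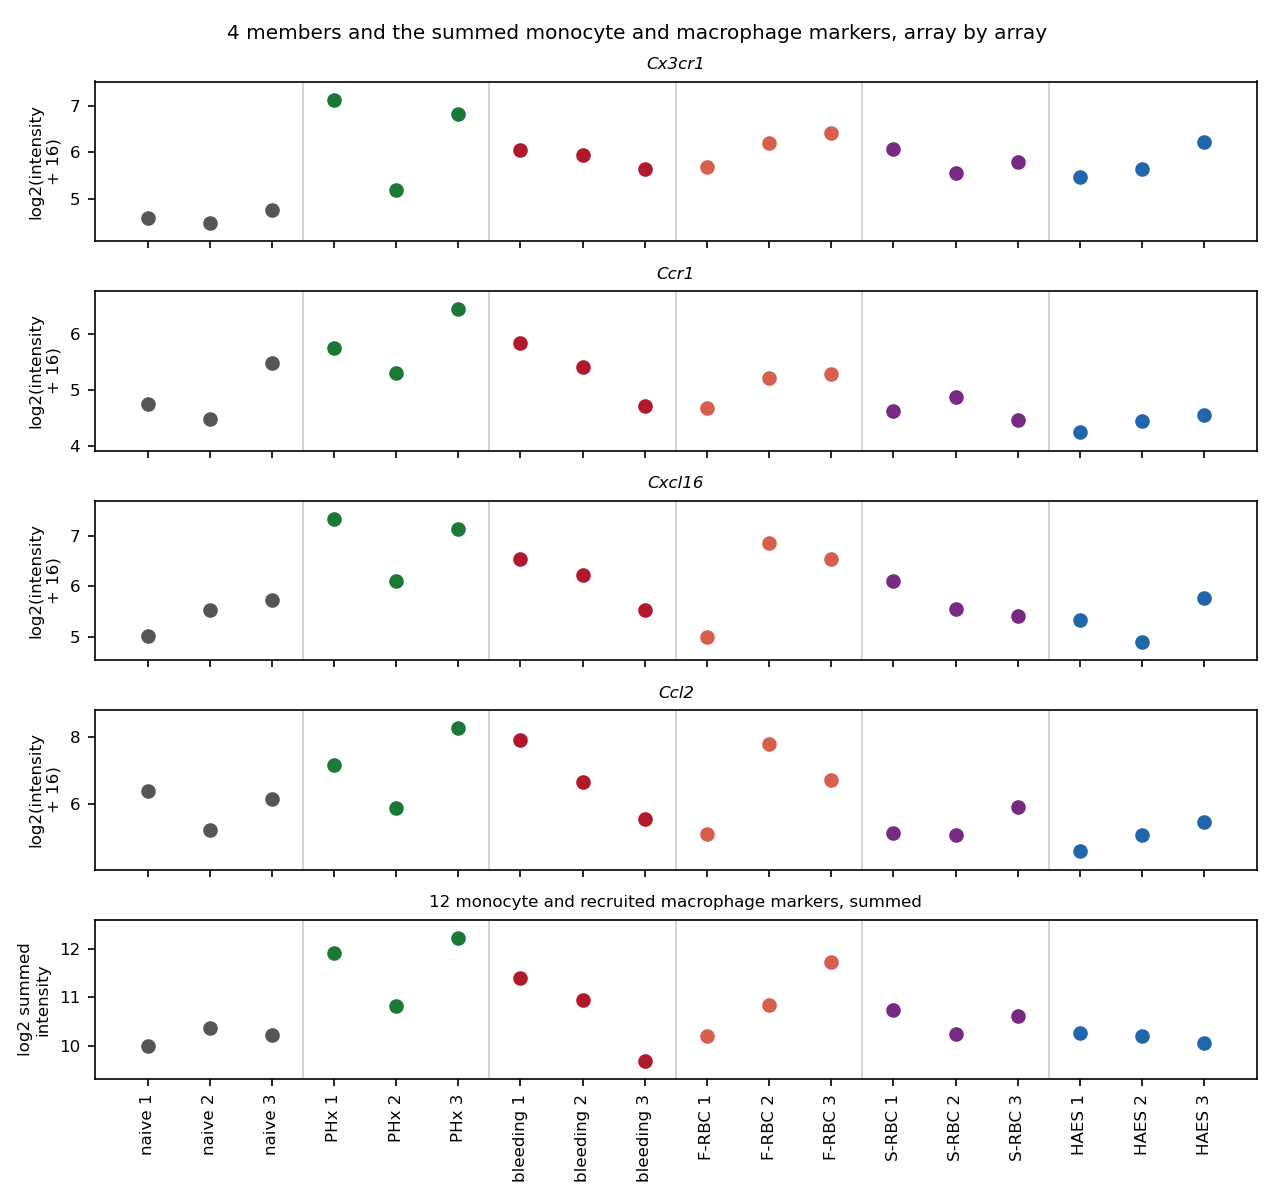
Level of Cx3cr1, Ccr1, Cxcl16 and Ccl2 in each array as log2(intensity + 16), with the log2 of the summed intensity of 12 monocyte and recruited macrophage markers in the lowest panel, each panel with its own axis. Colours and grey lines separate the 6 groups of 3 arrays. Within the PHx group, replicate 2 is the lowest in all 5 panels, as is replicate 3 in the bleeding group and replicate 1 in the F-RBC group.

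Ccr8, a receptor known from regulatory T cells and other activated T cells, was dim and differed little within groups. Its intensity was 8.39, 3.18 and 5.41 in the naive livers and 13.0, 10.1 and 13.2 after PHx. It was 20.7, 15.3 and 15.1 in the bleeding group, 18.6, 13.5 and 17.1 in the F-RBC group, 14.2, 11.7 and 9.47 in the S-RBC group and 15.1, 11.9 and 16.2 in the HAES group. Every operated liver was brighter than every naive liver. Ccr8 rose in the bleeding group by 0.61 (SE 0.12, adjusted p = 0.0256), where it was the only member called (1.85% of members, 0.919% of all probe sets). It rose in F-RBC rats by 0.59 (SE 0.12, adjusted p = 0.0117), where 2 members were called (3.7%, against 6.17% of all probe sets), and in HAES rats by 0.49 (SE 0.12, adjusted p = 0.0361). Over all operated groups it rose by 0.49 (SE 0.09, adjusted p = 0.00939). The differences of 0.38 in PHx rats and 0.36 in S-RBC rats missed the threshold (adjusted p = 0.214 and 0.118).

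The F-RBC difference of Ccr8 kept its call in all 18 fits without 1 array, the only one of 14 such calls of single members that did. The bleeding difference lost it without naive replicate 2 or 3 or any bleeding array (adjusted p up to 0.133), the HAES difference without naive replicate 2 or 3 or HAES replicate 1 or 3 (up to 0.154), and that over all operated groups without naive replicate 2 (0.0875). After quantile normalization Ccr8 differed from naive rats by 0.49 in the bleeding, 0.41 in the F-RBC and 0.41 in the HAES group, and all 3 missed the threshold (adjusted p = 0.0701, 0.084 and 0.107), while the difference over all operated groups kept it (adjusted p = 0.0381). The array medians were 16.11 to 18.59 in naive and 16.76 to 23.02 in operated livers. T and NK cell markers, 14 in all, summed to 313 to 389.9 in naive livers and 307.7 to 489.6 in the operated ones, and 0 of the 14 were called in any comparison by limma, with 0 to 7 at an unadjusted p under 0.05. Their part was not tested.

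Cxcr6, the receptor of Cxcl16 on T and NKT cells, was dim as well, and its naive livers did not overlap the operated ones. Its intensity was 3.38, 4.15 and 3.82 in naive livers and 16.8, 7.29 and 13.1 in S-RBC livers, with 5.33 to 13.1 in the other operated livers. It rose by 0.51 (SE 0.13, adjusted p = 0.0394) in S-RBC rats and by 0.38 (SE 0.10, adjusted p = 0.0472) over all operated groups. In S-RBC rats 2 members were called (3.7%) against 3.37% of all probe sets, and 0 without S-RBC replicate 1. Without S-RBC replicate 1, the array that stood apart, the difference was 0.39 (adjusted p = 0.137). The S-RBC call was also lost without any naive array, PHx replicate 3, bleeding replicate 3 or S-RBC replicate 3, and the call over all operated groups was lost in 13 of 18 fits (adjusted p up to 0.207), kept only without bleeding replicate 2, S-RBC replicate 1 or 2, or HAES replicate 1 or 2. Quantile normalization gave 0.45 (adjusted p = 0.0601) and 0.29 (adjusted p = 0.116). Over all operated groups against naive rats, 4 members were called (7.41%, against 3.21% of all probe sets), and 5 members had no overlap (9.26%, against 1.8%), namely Ccl9, Ccr1l1, Ccr8, Cxcr6 and Cx3cr1.

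Ccr1, a receptor of Ccl3, Ccl5 and Ccl9 on monocytes and neutrophils, was lower in the HAES group than in the PHx group. Its intensity was 37.6, 23.6 and 70.6 after PHx and 3.00, 5.79 and 7.57 in the HAES group, with no overlap. It was 11, 6.52 and 28.6 in naive livers, 41.4, 26.3 and 10.1 in the bleeding group, 9.63, 21.1 and 23.2 in the F-RBC group and 8.75, 13.3 and 6.07 in the S-RBC group. The F-RBC and S-RBC livers thus also lay below all PHx livers, but neither difference passed the threshold. Of all probe sets, 19.7%, 24.7% and 16.7% did not overlap in HAES, F-RBC and S-RBC against PHx rats. Ccr1 fell by 1.41 in HAES against PHx rats (SE 0.31, adjusted p = 0.0218), the only member called (1.85%) where 2.28% of all probe sets were. The call was lost without PHx replicate 1 or 3 or any HAES array (adjusted p up to 0.125). Of the 12 monocyte and macrophage markers 11 were also lower in HAES than in PHx rats, with a median of −0.8. Among them Spp1, Gpnmb and Mmp12 were called (25%, against 2.28% of all probe sets). In S-RBC against PHx rats all 12 were lower, with a median of −0.567, and the same 3 were called (25%, against 0.733% of all probe sets). Of the 12 neutrophil markers 8 were lower in HAES than in PHx rats, with a median of −0.0526. There 3 were called lower (25%, against 2.28% of all probe sets), namely S100a8, S100a9 and Il1r2. The part of either list was not tested.

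The other receptors did not pass the threshold in any comparison. Ccr10, a receptor of Ccl27 and Ccl28, was at 12.1, 14.8 and 5.82 in naive livers and 36.2, 16.4 and 19.9 after PHx, a difference of 0.56 (SE 0.19, adjusted p = 0.237). Cxcr2, the main neutrophil receptor of Cxcl1, was at 9.99, 5.42 and 2.76 in naive and 13.8, 10.6 and 25.4 in PHx livers, a difference of 0.55 (adjusted p = 0.191). Ccr2, the monocyte receptor of Ccl2, was at 11.3 to 43.6 in naive and 21.0 to 67.9 in PHx livers, which overlapped. Of the 10 CC receptors 7 were higher in mean after PHx than in naive rats, as were 6 of the 8 CXC, XC and CX3C receptors and both atypical receptors, Ackr2 and Ackr3. Such counts depended on the scaling. Of all 54 ligands and receptors 36 were higher in this pair, but 29 after quantile normalization or median centring.

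Among the ligands, the Cxcr3 ligand Cxcl10 had the smallest F-test p of the family. Its intensity was 99.1, 79.5 and 81.8 in naive livers, 63.7, 67.0 and 72.8 after PHx, 82.2, 69.6 and 73.5 in the bleeding group and 86.1, 124 and 78.1 in the F-RBC group. It was 52.6, 48.4 and 54.1 in the S-RBC group and 51.4, 60.6 and 36.6 in the HAES group. Every S-RBC and HAES liver was dimmer than every other liver. Cxcl10 fell by 0.66 (SE 0.16, adjusted p = 0.0404) in HAES against naive rats, where 2 members were called (3.7%, against 2.62% of all probe sets). The difference of −0.71 between S-RBC and F-RBC rats missed the threshold (SE 0.16, 95% interval −1.06 to −0.36, adjusted p = 0.0613, and −0.72 with 0.123 without S-RBC replicate 1), as did that of −0.60 between S-RBC and naive rats (adjusted p = 0.0562). Both passed without HAES replicate 3 (adjusted p = 0.0495 and 0.0414), and the latter also without F-RBC replicate 2 (0.0379). The HAES call was lost in 11 of 18 fits without 1 array (adjusted p up to 0.208), namely without any naive, PHx or bleeding array or without HAES replicate 1 or 3, and after quantile normalization (adjusted p = 0.0704).

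The other Cxcr3 ligands did not pass. Cxcl9 was at 95, 106 and 91.2 in naive livers and 42.0, 20.8 and 28.0 in the HAES group, without overlap, as in 18.2% of all probe sets. The difference was −1.31 (SE 0.42, adjusted p = 0.118), which passed without F-RBC replicate 1 (adjusted p = 0.0458). Cxcl9 spread from 39.1 to 158 in the bleeding group and from 26.9 to 144 in the F-RBC group. Cxcl11 was at 85.5, 85.1 and 79.2 in F-RBC and 65.1, 69.6 and 39.1 in S-RBC livers, a difference of −0.45 (SE 0.19, adjusted p = 0.206), or −0.53 without S-RBC replicate 1 (adjusted p = 0.247).

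Cxcl13, which guides B cells into lymphoid follicles through Cxcr5, was lower over the operated groups. Its intensity was 14.7, 85.4 and 69.1 in naive livers, 6.41, 4.66 and 9.66 after PHx, 5.38, 4.17 and 6.89 in the bleeding group and 5.06, 10.9 and 8.74 in the S-RBC group. It was 14.8, 12.8 and 30.6 in the F-RBC group and 11.2, 69.7 and 31.1 in the HAES group. The PHx, bleeding and S-RBC livers all lay below the naive ones, while the F-RBC and HAES livers overlapped them. Of all probe sets, 16.2%, 25.2% and 19% did not overlap in PHx, bleeding and S-RBC against naive rats. Cxcl13 fell by 1.16 (SE 0.30, adjusted p = 0.0422) over all operated groups. Without naive replicate 2 the difference was −0.83 (adjusted p = 0.237), and without naive replicate 3 it was −0.96 (adjusted p = 0.197). The call was also lost without any PHx or bleeding array, F-RBC replicate 1 or 2, S-RBC replicate 3 or HAES replicate 3 (adjusted p = 0.0514 to 0.0612). Without naive replicate 1, the dimmest naive liver, the differences from naive rats passed in PHx (−2.03, adjusted p = 0.0196), bleeding (−2.12, adjusted p = 0.0108), F-RBC (−1.42, adjusted p = 0.0416) and S-RBC rats (−1.94, adjusted p = 0.00824). The 8 B and plasma cell markers summed to 219.8 to 246.8 in naive livers and 159.8 to 248.3 in operated ones, and 0 of 8 were called in any comparison by limma, with 0 to 3 at an unadjusted p under 0.05. Their part was not tested.

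The chemokines that attract neutrophils gave no call. Cxcl1 spanned the widest range of the family, at 355, 28.5 and 382 in naive livers, 148, 519 and 87.4 after PHx and 263, 317 and 286 in the bleeding group. It was 33.5, 99.9 and 45.3 in the F-RBC group, 198, 242 and 361 in the S-RBC group and 7.88, 33.0 and 76.2 in the HAES group. The bleeding and S-RBC livers were all brighter than the F-RBC and HAES livers, while naive replicate 2 lay with the dim ones. The difference was −2.67 in HAES against bleeding rats (SE 0.71, adjusted p = 0.0673), −2.11 in F-RBC against bleeding rats (adjusted p = 0.174) and 1.96 in S-RBC against F-RBC rats (95% interval 0.46 to 3.47, adjusted p = 0.158, and 2.15 with 0.243 without S-RBC replicate 1). Without naive replicate 2, the difference of HAES from bleeding rats passed (−2.67, adjusted p = 0.0197), as did those of HAES from PHx (−2.13, adjusted p = 0.0478) and of HAES and F-RBC from naive rats (−3.01 and −2.44, adjusted p = 0.0163 and 0.0352). Neither the HAES nor the bleeding group holds that array. Their difference stayed at −2.67, and only the shared spread and the adjustment changed.

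Neutrophil markers, of which 12 of 14 were measured, did not follow Cxcl1 in naive livers, where their sum was 158 to 168.1 against 315.6 to 399.7 after PHx, 244.4 to 422.8 in the bleeding group, 206.5 to 288 in the F-RBC group, 237.8 to 326.2 in the S-RBC group and 155.8 to 200.3 in the HAES group. After PHx 9 of the 12 were higher in mean than in naive rats. Of the 12, 3 were called higher (25%, against 0.346% of all probe sets), namely S100a8, S100a9 and Il1r2. Cxcl2, Cxcl3 and Cxcl6, close relatives of Cxcl1, were dim throughout (Cxcl2 at 3.42 to 16.7), and probes shared among such relatives were not tested.

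The Ccr2 ligand Ccl2 and the Cxcr6 ligand Cxcl16 varied widely among rats of a group. In the PHx, bleeding and F-RBC groups the array with the lowest sum of monocyte and macrophage markers was also the lowest in both, as the plot by array shows, while in the naive and HAES groups the order of Ccl2 ran opposite to that of the sum. Ccl2 was at 66.6, 21.2 and 54.6 in naive livers, 126, 42.3 and 288 after PHx and 7.77, 17.5 and 27.2 in the HAES group, and the difference of HAES from PHx rats was −2.06 (SE 0.66, adjusted p = 0.121). Cxcl16 was at 16.7, 30.3 and 37.1 in naive livers, 145, 53.1 and 124 after PHx and 24.7, 14.0 and 39.0 in the HAES group. It was 1.42 higher after PHx than in naive rats (SE 0.42, adjusted p = 0.182) and differed by −1.51 in HAES against PHx rats (SE 0.42, adjusted p = 0.074), with no overlap in either comparison. Of all probe sets, 16.2% and 19.7% did not overlap in these comparisons. Without PHx replicate 2, the dimmest of its group, the HAES difference of Cxcl16 from PHx rats was −1.88 and passed (adjusted p = 0.0386), and it also passed without F-RBC replicate 1 (adjusted p = 0.0248).

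Ccl9, the brightest member, was at 1880, 1990 and 1970 in naive livers and 3220, 2210 and 3230 in S-RBC livers, with 2070 to 3010 in the other operated livers, all above the naive ones. It rose by 0.54 (SE 0.14, adjusted p = 0.038) in S-RBC rats. Without S-RBC replicate 1 the difference was 0.45 (adjusted p = 0.135), and the call was also lost without any naive array, bleeding replicate 2 or 3 or S-RBC replicate 3, and after quantile normalization (0.45, adjusted p = 0.0622). Ccl6, its bright neighbour in level, lay between 624 and 1340 in all groups with overlap.

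Ccl24, which attracts eosinophils through Ccr3, was lower in the HAES group than in the bleeding group. Its intensity was 197, 47.9 and 36.2 in the bleeding group and 14.3, 1.58 and 19.6 in the HAES group, with 29.8, 32.9 and 33.3 in naive livers. It was 25.1, 19.4 and 29.2 after PHx, 14.9, 56.5 and 43.3 in F-RBC livers and 20.8, 20.0 and 29.9 in S-RBC livers. The bleeding livers thus also lay above all naive, PHx and S-RBC livers, but none of these differences passed the threshold. Of all probe sets, 25.2%, 23.2% and 24.2% did not overlap between bleeding and naive, PHx and S-RBC rats. Ccl24 fell by 1.74 in HAES against bleeding rats (SE 0.41, adjusted p = 0.0389), the only member called (1.85%, against 1.81% of all probe sets). Without bleeding replicate 1 the difference was −1.12 (adjusted p = 0.112) and without HAES replicate 2 it was −1.44 (adjusted p = 0.145). The call was also lost without naive replicate 2, PHx replicate 1 or 3, bleeding replicate 2, or HAES replicate 1 or 3 (adjusted p = 0.0503 to 0.0659).

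Fresh and stored red cells were compared directly, since this pair is the question of the study. None of the members was called between rats given stored and fresh cells (0 of 54, against 0.496% of all probe sets), while 5 had an unadjusted limma p under 0.05 and 0 passed the methods' t-test after adjustment, with 3 under 0.05 before it. In mean, 39 of 54 were lower in S-RBC rats, with a median of −0.22 against −0.0692 over all probe sets. Without S-RBC replicate 1, 39 were lower, with a median of −0.0999 against −0.069, and after quantile normalization 18 were higher and the median was −0.098. In 7 members (13%, against 21.1% of all probe sets) the groups did not overlap, with Cxcl1 higher and Cxcl10, Cxcl11, Cxcl13, Ccl22, Cxcl17 and Cx3cl1 lower. Cx3cl1, the ligand of Cx3cr1, was at 18.2, 18.4 and 17.4 in F-RBC livers and 2.11, 8.05 and 10.9 in S-RBC livers, a difference of −0.58 (SE 0.17, 95% interval −0.93 to −0.23, adjusted p = 0.0957). Without S-RBC replicate 1, the dimmest of its group, the difference of Cx3cl1 was −0.42 (adjusted p = 0.258).

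**Figure D4:**
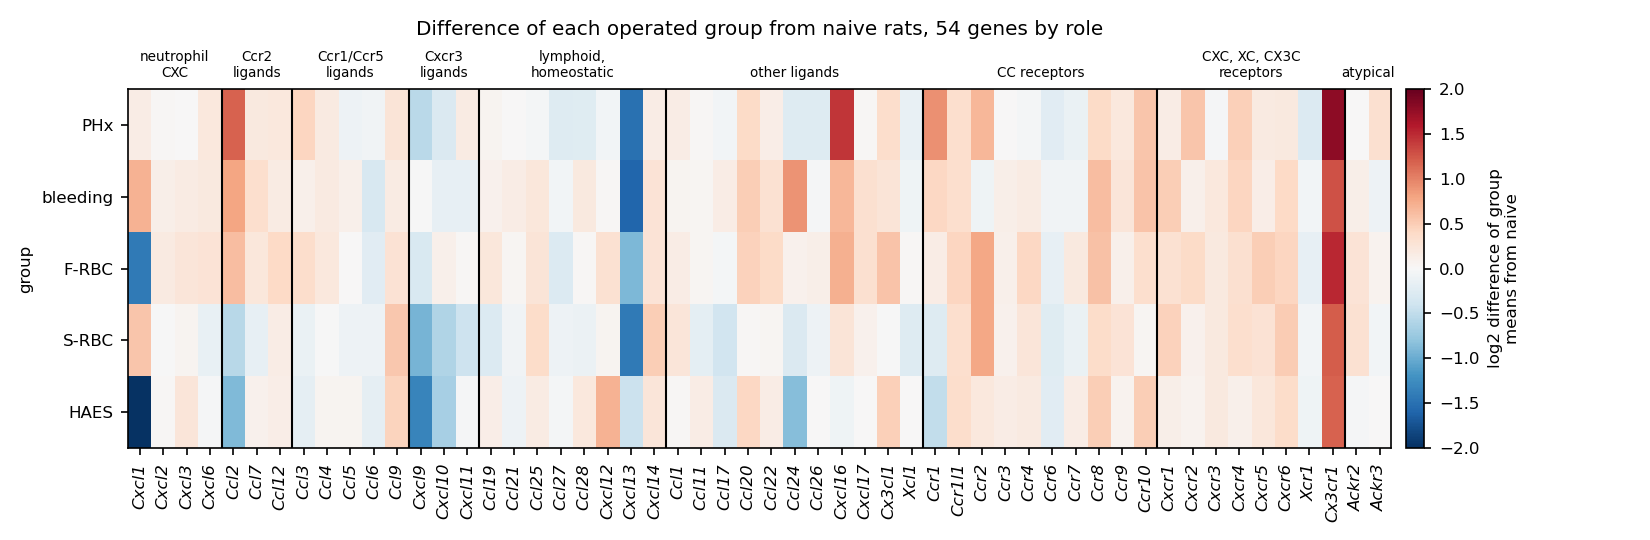
Difference of the mean log2(intensity + 16) of each operated group (rows) from naive rats for the 54 genes (columns), ordered by role, with red for higher and blue for lower on a scale from −2 to 2. Cx3cr1 is red in all 5 rows, Cxcl13 is blue in all 5, and Cxcl1 is dark blue in the F-RBC and HAES rows.

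No member passed in 7 further comparisons, which were bleeding, F-RBC and S-RBC against PHx rats (0%, 0.172% and 0.733% of all probe sets called), F-RBC and S-RBC against bleeding rats (1.21% and 2.06%) and F-RBC and S-RBC against HAES rats (0% and 0.00545%). The members with an unadjusted limma p under 0.05 numbered 4, 6, 13, 3, 8, 5 and 8 in that order, and 0 passed the methods' t-test after adjustment. The shares of all probe sets just given hold for the adjusted threshold and cannot be set against these unadjusted counts. Cxcl12, which holds leukocytes and stem cells in place through Cxcr4, was at 448, 442 and 433 in HAES livers and 214, 285 and 312 in naive livers, a difference of 0.69 (SE 0.25, adjusted p = 0.173). The HAES livers were above all PHx, bleeding, F-RBC and S-RBC livers too, though S-RBC replicate 1 was close at 431. Pair by pair, 11.9% to 21.9% of all probe sets did not overlap between HAES and each other group. In 0 of 54 members did the 9 livers of rats given red cells or HAES all lie on 1 side of the other 9, against 0.733% of all probe sets.

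Genes that act below the receptors were counted from a list of G protein subunits, kinases, arrestins and guanine nucleotide exchange factors, of which 35 of 40 were measured. After PHx 32 of 35 were higher in mean than in naive rats (median 0.415, against 0.0328 over all probe sets), and 0 passed the limma threshold, with 20 at an unadjusted p under 0.05. Against naive rats 31 of the 35 were higher in mean in F-RBC rats, where the median of all probe sets lay at 0.144. Of the 35, 4 were called higher there, namely Arrb1, Rac2, Vav1 and Fgr (11.4%, against 6.17% of all probe sets). In S-RBC against naive rats 0 were called by limma, with 6 at an unadjusted p under 0.05. Between S-RBC and F-RBC rats, 0 of 35 were called by limma, with 10 at an unadjusted p under 0.05. In mean, 29 of the 35 were lower in S-RBC rats, with a median of −0.225 against −0.0692 over all probe sets. Against PHx rats, Prkcd fell in S-RBC rats (2.86%, against 0.733% of all probe sets) and Gnai2 and Grk5 fell in HAES rats (5.71%, against 2.28%). Grk6 fell in S-RBC against bleeding rats (2.86%, against 2.06%). Of 16 measured NF-kB, interferon-gamma and adhesion genes, 15 were higher in mean after PHx than in naive rats with 0 called by limma. In S-RBC against F-RBC rats 14 of the 16 were lower in mean (median −0.155, against −0.0692 over all probe sets), again with 0 called. Irf1, a transcription factor induced by interferon, fell by 0.70 in HAES against PHx rats (adjusted p = 0.0414), 6.25% of the list against 2.28% of all probe sets.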

How the data were processed

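Liver RNA of 18 rats was hybridised to 18 arrays. The deposited values are linear intensities of probe sets (1e-05 to 8721), made by the authors with Affymetrix Power Tools and PLIER per the submitters' processing notes, while the methods also name RMA. The sources used here give neither versions nor a build. No further normalization was applied. Groups came from the sample labels, and 0 columns per sample were left unused. Of 36685 probe sets 18511 had 1 symbol, and all 54 members were found in RefSeq by gene identifier. Group means of log2(intensity + 16) were estimated by limma 3.58.1 (R 4.3.3) from all 18 arrays with a variance trend (12 residual degrees of freedom). The F test and 16 contrasts were adjusted by Benjamini-Hochberg over all probe sets. The script was tested on simulated data. The number of arrays limits the precision. Members past the threshold are named, filled to 12 by F-test p, and the rest by role. The members and lists were chosen with earlier results of these data known. Alternatives covered the offset (1 and 64), array weights, median centring, quantile normalization, a replicate block, dim probe sets left out, the methods' t-test, fits to only the groups compared and fits without each array. Replicate numbers did not pair the arrays. Promoters were read with Python 3.11.15 and pandas 2.3.3, and figures drawn with matplotlib 3.10.9.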

Additional observations from a re-analysis of the deposited data

How the results depend on the processing

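Of the 14 calls of single members, 0 reversed under any alternative, and 1 passed in all 18 fits without 1 array. The 4 members past the F test became 2 with an offset of 64 and 7 with array weights. Quantile normalization left 3 (Cxcl13, Ccr1 and Cx3cr1), median centring 4 (Cxcl10, Cxcl13, Ccr1 and Cx3cr1) and the replicate block 3, since Cx3cr1 missed the threshold (adjusted p = 0.0554). Against naive rats, the 1 member called after PHx became 0 with an offset of 64, with the replicate block, with only the groups compared and with the methods' t-test, and 2 with array weights. The 1 in the bleeding group became 3 with an offset of 1 or array weights, 2 with the replicate block and 0 without dim probe sets or with the t-test. The 2 in F-RBC rats became 1 with quantile normalization, median centring, an offset of 64 or without dim probe sets, 4 with an offset of 1, 9 when arrays were weighted, 6 from only those groups and 0 with the t-test. The 2 in S-RBC rats became 1 with either scaling, array weights or only those groups, 4 with an offset of 1 and 0 with the t-test. The 2 in HAES rats became 0 with quantile normalization or the t-test and 1 with median centring, an offset of 64, without dim probe sets, with array weights or the replicate block. The 4 over all operated groups became 2 with an offset of 64 and 1 without dim probe sets. The 1 between HAES and PHx became 2 with median centring and 0 without dim probe sets, with only the groups compared or the t-test. The 1 between HAES and bleeding became 0 with an offset of 64, the replicate block or the t-test and 2 without dim probe sets or with array weights. From 0, F-RBC against bleeding became 1 with only the groups compared (Cxcl1) and S-RBC against F-RBC became 1 with array weights (Cxcl10). The cause was not tested, except that Ccr8, Ccr1, Cxcr6 and Cxcl13 lie below the median and leave the test without dim probe sets.

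Without 1 array, the counts ranged from 1 to 5 for the F test, 0 to 1 for PHx, 0 to 2 for bleeding, 1 to 6 for F-RBC, 0 to 3 for S-RBC, 0 to 3 for HAES and 0 to 5 for all operated groups, each against naive rats. They ranged from 0 to 3 for HAES against PHx, and from 0 to 1 for HAES against bleeding, S-RBC against PHx, S-RBC against bleeding and S-RBC against F-RBC, and stayed at 0 in the other 5 comparisons. The median of all probe sets lay 0.144 higher in F-RBC than in naive rats and 0.102 higher than in PHx rats, and near 0 after quantile normalization (−0.00213 and −0.00253), when 34 in place of 46 members were higher in F-RBC than in naive rats and 27 in place of 39 than in PHx rats. Deviations of arrays with the same replicate number correlated at −0.253 to 0.293 over 45 pairs (4 over 0.1), and 3 of 18 arrays correlated best with their own number, so the block result is given only here. Dim genes near the offset limit what could be seen.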

Other observations

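Of the Kupffer cell markers, Slc40a1, the iron exporter that these cells use to release iron from red cells, rose by 0.93 in F-RBC against naive rats (adjusted p = 0.0272). It rose by 1.23 and 0.97 in F-RBC and HAES against bleeding rats (adjusted p = 0.0157 and 0.0421). Each was 9.09% of the list, against 6.17%, 1.21% and 1.81% of all probe sets. Slc40a1 was the only 1 of 11 Kupffer cell markers past the F test. Vsig4, another of them, was called higher in S-RBC against bleeding rats (9.09%, against 2.06% of all probe sets). There 10 of the 11 were higher in mean, with a median of 0.504. Of 10 sinusoidal endothelial markers 6 were measured. Among them Lyve1 was called higher in F-RBC against naive and bleeding rats (16.7% each, against 6.17% and 1.21% of all probe sets). Cdh5 was called lower in S-RBC and HAES against PHx rats (16.7% each, against 0.733% and 2.28%). Of 9 stellate cell and fibroblast markers, 9 were lower in mean in S-RBC than in F-RBC rats (median −0.505, against −0.0692 over all probe sets), with 0 called by limma and 5 at an unadjusted p under 0.05. Tagln was called lower in S-RBC and HAES against PHx rats (11.1% each, against 0.733% and 2.28% of all probe sets). Lrat was called higher in F-RBC against bleeding rats (11.1%, against 1.21%). Pf4, Ppbp and Ccrl2, family genes whose symbols fall outside the rule, gave 0 calls in any comparison, with 1 of 3 at an unadjusted p under 0.05 between S-RBC and F-RBC rats.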
